A study of Mus musculus with 16 samples.

Results

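The leptin receptor gene Lepr and 7 genes of the related gp130-type cytokine system were followed across the 4 groups of a mouse liver RNA-seq study. The 8 genes are Lepr, the ligand-binding chains Il6ra, Lifr and Osmr, the shared chain Il6st, the kinase Jak2, the transcription factor Stat3 and the feedback inhibitor Socs3. All 8 were among the 15119 genes of the deposited counts table, and all 8 were among the 14434 genes tested. Lepr was chosen by its measured CPM in these same libraries, because its diet response differed by genotype, so its levels and differences are given as a description with no test. The other 7 were chosen for their known relation to it.

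The study measured poly(A) RNA in livers of female mice that either lacked Arglu1 in hepatocytes (LKO) or were wild type (WT). Arglu1 encodes a coregulator of transcription and splicing. Mice were kept on chow until 9 months of age and then received a high-fat diet (HFD, TD. 88137) or stayed on chow for 12 weeks. Each group, LKO on HFD, LKO on chow, WT on HFD and WT on chow, had 4 libraries, with total estimated counts of 19142612 to 25120565. Liver cells other than hepatocytes keep Arglu1 in this model, the labels do not name the Cre driver, and they do not say that libraries come from separate animals, so p-values describe the spread between libraries. Arglu1 itself was at 12.8 to 16.7 CPM (counts scaled to library size) in the 8 LKO libraries and at 39.5 to 45.1 CPM in the 8 WT libraries. LKO chow libraries 3 and 4 stood apart from libraries 1 and 2 on the second principal component of all tested genes (scores of 38.1 and 34.7 against -10.7 and -11.1, 13.8% of the variance), so results on chow are also given without either pair. Hepatocyte markers were present in every library, with 9 of 10 listed genes found and a summed level of 74020 to 132300 CPM.

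Leptin is released by adipocytes and signals fullness to the brain through the long form of its receptor, whose intracellular tail binds JAK2 and recruits STAT3. Lepr belongs to the same receptor class as IL6ST (gp130), the shared chain that pairs with IL6RA, LIFR or OSMR to carry signals of interleukin-6, leukemia inhibitory factor and oncostatin M. In hepatocytes these cytokines act through JAK kinases and STAT3 to induce acute phase proteins and SOCS3, which shuts the receptors down. Liver makes mainly short and soluble forms of the leptin receptor. The deposited table has 1 value per gene, so the forms are not told apart here.

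Activated STAT3 binds DNA at a palindrome whose letters are TTCNNNGAA, which reads the same on both strands. RefSeq promoter windows (GRCm38.p6, 250 bases before to 50 after each annotated start) were found for all 8 genes, in 10 windows, because Lepr and Lifr have 2 annotated starts each. The palindrome occurred in 1 of the 8 genes, Socs3, a textbook STAT3 target, and in 9.55% of 27025 genes with a window (8.3% of 32851 windows). The Socs3 window (chr11:117969317-117969616, minus strand) is printed to show this match, in capitals, which begins 154 bases before the start. The 2 Lepr windows (chr4:101717157-101717456 and chr4:101717656-101717955, plus strand) are printed because Lepr changed most among the 8 genes, and they hold no match. A match is only a run of letters, and its absence says nothing about the factor.
Socs3 promoter: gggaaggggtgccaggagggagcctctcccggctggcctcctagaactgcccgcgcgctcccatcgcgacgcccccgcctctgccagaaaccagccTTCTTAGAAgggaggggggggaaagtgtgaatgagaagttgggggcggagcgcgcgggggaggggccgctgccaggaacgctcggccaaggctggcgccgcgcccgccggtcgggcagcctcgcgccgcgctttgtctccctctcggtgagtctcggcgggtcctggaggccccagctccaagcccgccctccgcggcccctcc
Lepr promoter, first start: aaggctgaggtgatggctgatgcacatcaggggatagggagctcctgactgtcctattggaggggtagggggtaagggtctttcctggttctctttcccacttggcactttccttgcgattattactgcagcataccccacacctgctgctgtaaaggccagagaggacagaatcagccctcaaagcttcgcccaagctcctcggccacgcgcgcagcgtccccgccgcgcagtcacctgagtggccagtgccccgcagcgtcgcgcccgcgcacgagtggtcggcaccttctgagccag
Lepr promoter, second start: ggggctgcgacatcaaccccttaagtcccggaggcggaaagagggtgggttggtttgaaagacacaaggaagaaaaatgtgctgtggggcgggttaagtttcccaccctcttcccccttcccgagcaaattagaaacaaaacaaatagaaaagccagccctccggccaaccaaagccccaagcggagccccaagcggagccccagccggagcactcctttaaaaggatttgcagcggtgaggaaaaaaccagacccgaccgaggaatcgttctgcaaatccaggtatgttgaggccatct

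Lepr (chr4:101717404-101815352, GRCm38, plus strand) was lowest in WT livers on chow and higher in the other 3 groups. It was at 22.1, 20.9, 16.4 and 21.4 CPM in the LKO HFD libraries, at 21.9, 16.2, 11.4 and 14.25 CPM in the LKO chow libraries, at 31.3, 22.7, 23.7 and 22.1 CPM in the WT HFD libraries and at 4.07, 5.74, 7.83 and 5.74 CPM in the WT chow libraries. All 12 libraries of the first 3 groups lay above all 4 of WT on chow. The estimated counts behind the low group were 79.5 to 145 reads per library, so the low level does not rest on a few reads.

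Lepr averaged 20.2 ± 2.60 CPM in LKO on HFD, 15.9 ± 4.43 CPM in LKO on chow, 24.98 ± 4.29 CPM in WT on HFD and 5.84 ± 1.54 CPM in WT on chow (SD, n = 4 each). The order of level was thus WT on HFD, LKO on HFD, LKO on chow and WT on chow. The 2 HFD groups overlapped slightly, at 22.1 CPM, and the 2 LKO groups overlapped. The only gap between neighbours in this order lay between LKO on chow and WT on chow. On the log2 scale, Lepr was 1.45 higher in LKO than in WT on chow (SE 0.204) and -0.31 apart on HFD (SE 0.19). HFD against chow gave 2.10 in WT (SE 0.205) and 0.34 in LKO (SE 0.191), a difference of -1.76 between the diet responses (SE 0.278). These are the values for which Lepr was chosen, in a comparison where 0.0208% of genes tested (3 of 14434) were called, 0.00693% higher and 0.0139% lower.

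The LKO chow libraries that stood apart shifted these values without turning any of them. Without LKO chow libraries 1 and 2, the LKO-over-WT difference on chow was 1.14, the diet difference in LKO 0.66 and the difference between diet responses -1.44 (log2). Without libraries 3 and 4, the same values were 1.71, 0.08 and -2.02. Over 26 alternative fits the difference between diet responses of Lepr ran from -2.02 to -1.44.

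**Figure D1:**
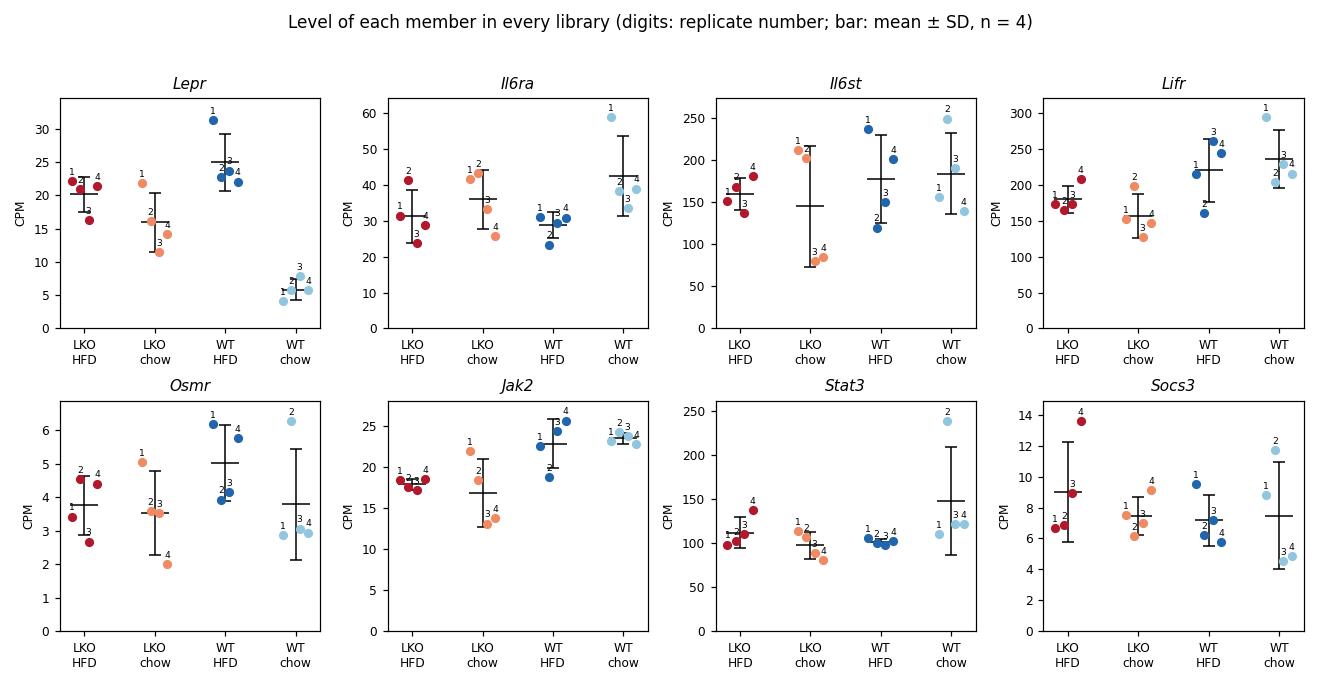
Levels of the 8 genes in every library, in CPM on linear axes, by group (digits give the replicate number, bars the mean and SD of 4 libraries). Lepr in WT on chow lies between 4.07 and 7.83 CPM, below all other libraries, whereas the groups of the other 7 genes mostly overlap.

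Leprot, whose product lowers leptin receptor at the cell surface, lies upstream of Lepr on the same strand. GENCODE M21 places the 2 genes 58.0 kb apart with no shared exon, so their reads can be told apart under that annotation. The annotation behind the deposited counts is not given. Leprot ranged over 15.7 to 24.1 CPM in the 16 libraries, and its LKO-over-WT difference on chow was 0.33 on the log2 scale (SE 0.098, adjusted p = 0.0189, edgeR) with overlapping groups. That call did not pass without WT chow library 1, 3 or 4, without LKO chow library 1 or with only the chow groups fitted (adjusted p of 0.0515 to 0.0872). The CPM ratio of Lepr to Leprot was 0.908 ± 0.147 in LKO on HFD, 0.754 ± 0.16 in LKO on chow, 1.33 ± 0.134 in WT on HFD and 0.353 ± 0.104 in WT on chow (SD, n = 4 each). The lowest ratio among LKO chow libraries, 0.559, was above the highest among WT chow libraries, 0.497. Leprotl1, a paralog of Leprot, was also higher in LKO on chow, by 0.50 (log2, SE 0.133, adjusted p = 0.01), with no overlap between groups. It was 0.24 with an adjusted p of 0.0869 without LKO chow libraries 1 and 2, and the adjusted p was 0.0527 with only the chow groups fitted.

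Among 12753 other tested genes with a mean of at least 1 CPM, those whose log2 CPM followed Lepr most closely over the 16 libraries were Adam11 (Pearson r 0.90), Rcn3 (0.86), Gramd1b (0.86), Col3a1 (0.855) and Lrrc18 (0.85). All 5 have their lowest group mean in WT on chow, as Lepr has, since that is what the ranking selects for. Adam11, a catalytically inactive member of the ADAM metalloprotease family, was at 175 to 189 CPM in LKO on HFD, 53.1 to 111 CPM in LKO on chow, 101 to 147 CPM in WT on HFD and 13.6 to 21.8 CPM in WT on chow. Gramd1b, which moves cholesterol from the plasma membrane to the endoplasmic reticulum, averaged 24.4 ± 1.72, 14.2 ± 0.768, 13.7 ± 1.82 and 3.72 ± 1.15 CPM in the same order of groups. Unlike Lepr, both of these genes had their highest mean in LKO on HFD.

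Col3a1, a fibrillar collagen of stellate cells and fibroblasts, averaged 50.3 ± 9.34 CPM in LKO on HFD, 36.2 ± 4.35 CPM in LKO on chow, 54.8 ± 12.6 CPM in WT on HFD and 26.8 ± 5.73 CPM in WT on chow. Like Lepr, it was highest in WT on HFD. The genes running most opposite to Lepr were Mpnd (r -0.91), Vmn2r86 (-0.86) and Rnase4 (-0.86), which were highest in WT on chow. Once group means were removed, the within-group correlation with Lepr was 0.22 for Adam11, 0.43 for Col3a1 and -0.61 for Mpnd. None of the other 7 genes of the receptor system ranked near the top over all libraries, the closest being Osmr at 0.36. Il6ra and Stat3 ran opposite to Lepr, at -0.55 and -0.43. Within groups, with no test, r with Lepr was 0.64 for Il6st and 0.56 for Jak2, above the values of Adam11 and Col3a1. It was 0.42 for Osmr, 0.28 for Stat3, 0.03 for Il6ra, -0.01 for Lifr and -0.15 for Socs3.

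**Figure D2:**
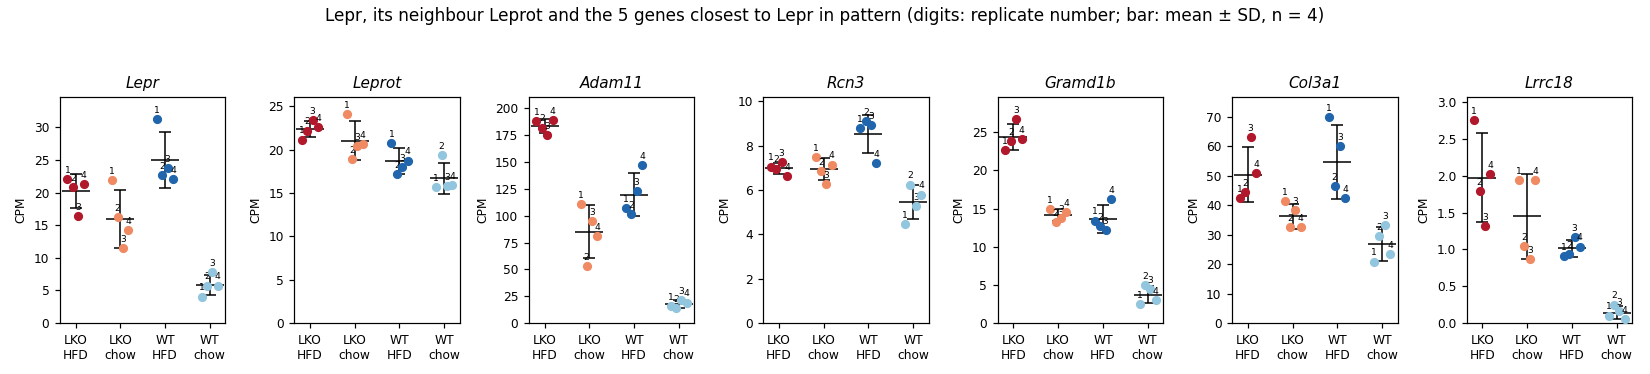
Lepr, its neighbour Leprot and the 5 genes closest to Lepr in pattern, in CPM on linear axes, for the 4 libraries of each group (digits give the replicate number, bars the mean and SD). Adam11, Gramd1b and Lrrc18 share the low WT chow group with Lepr, whereas Leprot differs little between groups.

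RNA of non-hepatocyte cells moved partly with Lepr. In WT, 3 of 14 stellate cell and fibroblast markers (Col1a1, Col1a2 and Col3a1) and 1 of 14 Kupffer cell and macrophage markers (Gpnmb) were higher on HFD than on chow, beside 0.97% of all genes, and no marker of either list was lower. In LKO, Gpnmb was again higher on HFD, beside 1.14% of all genes, and no stellate cell marker was called by edgeR. The 14 stellate cell markers summed to 466 to 569 CPM in LKO on HFD, 394 to 574 CPM in LKO on chow, 496 to 731 CPM in WT on HFD and 363 to 556 CPM in WT on chow, with no marker at 0 in a whole group. Over the 16 libraries, Lepr and that sum had r = 0.71, and r = 0.48 without the 2 libraries farthest from the median sum. On the log2 scale after removing group means r was 0.79. The sum includes Col3a1, which was listed above for following Lepr. With the Kupffer cell and macrophage sum, Lepr had r = 0.54, 0.53 without the 2 farthest libraries and 0.61 after removing group means. With the summed endothelial cell markers the same values were 0.38, 0.13 and 0.63. These values are a description with no test. On chow, 0 of the 14 stellate cell markers were called between LKO and WT by edgeR, beside 24.7% of all genes. Their median log2 difference was 0.15, with Col3a1 at 0.435 (adjusted p = 0.0814, edgeR). In these bulk samples, fewer cells of a type and less RNA per cell cannot be told apart, and the part of other cell types in the Lepr pattern was not tested.

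Relative to exon length, the 8 genes differed widely. Lifr (14.5 to 21.9 CPM per kb as group means), Il6st (13.1 to 16.6) and Stat3 (10.3 to 15.6) were the most abundant. Il6ra, Jak2, Lepr and Socs3 had group means between 0.83 and 4.90 CPM per kb, and Osmr was the lowest at 0.292 to 0.414. In WT on HFD, Lepr at 3.54 ± 0.609 CPM per kb lay between Il6ra at 3.32 ± 0.418 and Jak2 at 4.55 ± 0.598, within their spread, and in WT on chow, at 0.83 ± 0.22, it lay below all but Osmr.

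On chow, 3 of the 7 genes other than Lepr were lower in LKO than in WT and none was higher, and the 3 were Lifr, Jak2 and Stat3. Over all genes tested, 11.8% were called lower and 24.7% in either direction in this comparison. The median log2 difference of the 7 genes was -0.34, beside 0.02 over all genes tested. DESeq2 and limma voom also called 3 of the 7, and their own shares of all genes on chow are not given here. Over 27 alternative fits, 2152 to 5036 of all genes were called, beside 3565 in the main fit. The count of the 7 genes was 1 when only the 2 chow groups were fitted and 0 without LKO chow libraries 3 and 4.

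Lifr (chr15:7090614-7197489), the receptor chain for leukemia inhibitory factor, was at 153, 199, 128 and 147 CPM in the LKO chow libraries, against 294, 204, 229 and 216 CPM in the WT chow libraries. Every LKO library lay below every WT library, by a narrow margin between the closest pair. The fitted difference was -0.59 on the log2 scale, or 0.664-fold (SE 0.158, adjusted p = 0.0108, edgeR). It held in 26 of 27 alternative fits and was -0.42 with an adjusted p of 0.142 without LKO chow libraries 3 and 4. On HFD, Lifr was at 173, 165, 174 and 208 CPM in LKO libraries and at 215, 161, 261 and 245 CPM in WT libraries, which overlapped. That difference of -0.29 (95% interval -0.63 to 0.04) did not pass in edgeR (adjusted p = 0.223) and passed in limma voom (0.0307).

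Jak2 (chr19:29251828-29313080), the kinase bound to the leptin receptor, was at 22.0, 18.4, 13.1 and 13.8 CPM in the LKO chow libraries, against 23.2, 24.3, 23.8 and 22.8 CPM in the WT chow libraries. The 4 WT libraries lay close together and the LKO libraries lay below them, libraries 3 and 4 by most. The difference was -0.48 on the log2 scale (SE 0.136, adjusted p = 0.015, edgeR), and it was -0.22 with an adjusted p of 0.222 without LKO chow libraries 3 and 4. Leaving out library 3 or library 4 alone gave adjusted p-values of 0.0552 and 0.0523, and fitting only the chow groups gave 0.0588.

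On HFD, Jak2 was at 18.4, 17.6, 17.2 and 18.6 CPM in LKO libraries, against 22.6, 18.8, 24.4 and 25.7 CPM in WT libraries. All LKO libraries lay below all WT libraries, with WT library 2 the closest. The difference of -0.35 (log2, SE 0.135) did not pass in the edgeR fit over all libraries (adjusted p = 0.0817), and it passed in 7 of 27 alternatives, among them limma voom (0.0031), with all estimates between -0.44 and -0.29. The difference in diet response between the genotypes was 0.13 (95% interval -0.27 to 0.53).

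Stat3 (chr11:100885098-100939540), the transcription factor at the end of the pathway, was at 114, 107, 88.3 and 81.3 CPM in the LKO chow libraries, against 110, 239.5, 122 and 122 CPM in the WT chow libraries. WT library 2 was the highest of all 16 libraries, and the groups overlapped at LKO library 1 and WT library 1. The difference of -0.60 on the log2 scale passed with all libraries (SE 0.2, adjusted p = 0.0368, edgeR). Without WT chow library 2 it was -0.27 with an adjusted p of 0.134, and without LKO chow libraries 3 and 4 it was -0.42 with an adjusted p of 0.294. Leaving out LKO chow library 3 or library 4 alone gave adjusted p-values of 0.099 and 0.108. Fitting only the chow groups gave 0.118 and the replicate block 0.0539, so the call did not pass in 6 of 27 alternatives. On HFD, Stat3 averaged 112 ± 17.5 CPM in LKO and 101 ± 3.42 CPM in WT (SD, n = 4 each), a log2 difference of 0.14 (95% interval -0.28 to 0.57, adjusted p = 0.69). Stat3 shares 72 exon bases with Stat5a on the opposite strand, and strandedness of the counting is not given in the sources used here.

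**Figure D3:**
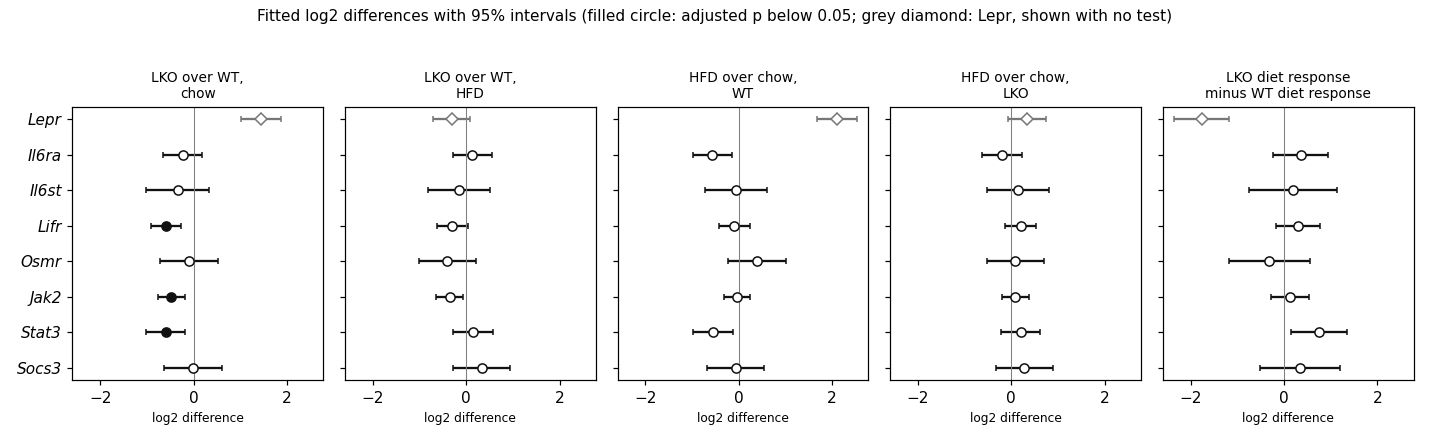
Fitted log2 differences of the 8 genes with 95% intervals in the 5 comparisons (filled circles, adjusted p below the 0.05 threshold in edgeR over all genes tested; grey diamonds, Lepr, shown with no test). Lifr, Jak2 and Stat3 lie below 0 for LKO over WT on chow, and no other circle is filled.

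Il6st (chr13:112464070-112510086), the shared signal-transducing chain, was called in none of the 5 comparisons. In LKO on chow its libraries formed 2 separate pairs, with 212 and 203 CPM in libraries 1 and 2 and 80.4 and 85.2 CPM in libraries 3 and 4. WT chow libraries were at 157, 249, 190 and 140 CPM. LKO HFD libraries were at 152, 169, 138 and 182 CPM, and WT HFD libraries at 237, 120, 150 and 202 CPM. The LKO-over-WT difference on chow was -0.34 with all libraries (95% interval -1.01 to 0.33, adjusted p = 0.476), -1.16 without LKO chow libraries 1 and 2 (adjusted p = 0.00532) and 0.17 without libraries 3 and 4 (adjusted p = 0.696).

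The level of Il6st followed the endothelial cell RNA of each library. The 15 endothelial markers, all detected in every library, summed to 642, 555, 261 and 241 CPM in the LKO chow libraries, against 252, 592, 395 and 306.5 CPM in the WT chow libraries. Over the 16 libraries, Il6st and this sum had a Pearson r of 0.89 and a Spearman rho of 0.89 (permutation test, adjusted p = 0.00021 and 0.00042 over 21 relations of 7 genes with 3 marker lists). Pearson r was 0.86 without the 2 libraries farthest from the median sum and 0.95 on the log2 scale after removing group means. The permutations shuffled all 16 libraries without regard to group, so differences between group means can enter these p-values. Groups of 4 libraries are too small for a test within each, and the relation was looked for with the split of the LKO chow libraries already known.

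Osmr (chr15:6813577-6874969), the oncostatin M receptor chain, was scarce and behaved like Il6st in this respect. It averaged 3.76 ± 0.88 CPM in LKO on HFD, 3.54 ± 1.25 CPM in LKO on chow, 5.02 ± 1.14 CPM in WT on HFD and 3.79 ± 1.66 CPM in WT on chow (SD, n = 4 each), and it was called in no comparison. Its correlation with the endothelial sum was r = 0.84 and rho = 0.84 (permutation test, adjusted p = 0.000525 and 0.00115), and r = 0.80 without the 2 farthest libraries. Both genes also followed Kupffer cell and macrophage markers (r of 0.77 for Il6st and 0.73 for Osmr, adjusted permutation p = 0.00336 and 0.0055) and stellate cell markers (r of 0.65 and 0.73, adjusted permutation p = 0.0228 and 0.0055). No relation of Il6ra, Lifr, Jak2, Stat3 or Socs3 with these 3 lists over all libraries passed the adjustment. After removing group means on the log2 scale, with no test, Jak2 had r = 0.77 with the endothelial, 0.75 with the Kupffer cell and macrophage and 0.60 with the stellate cell markers, and Stat3 had r = 0.66, 0.75 and 0.50 with the same lists. For Il6ra, Lifr and Socs3 these values ran from 0.01 to 0.41. The part of these cell types in the chow calls of Jak2 and Stat3 was not tested. None of the 15 endothelial markers was called between LKO and WT on chow by edgeR, beside 24.7% of all genes. On HFD 1, Vwf, was lower in LKO, beside 7.57% of all genes.

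**Figure D4:**
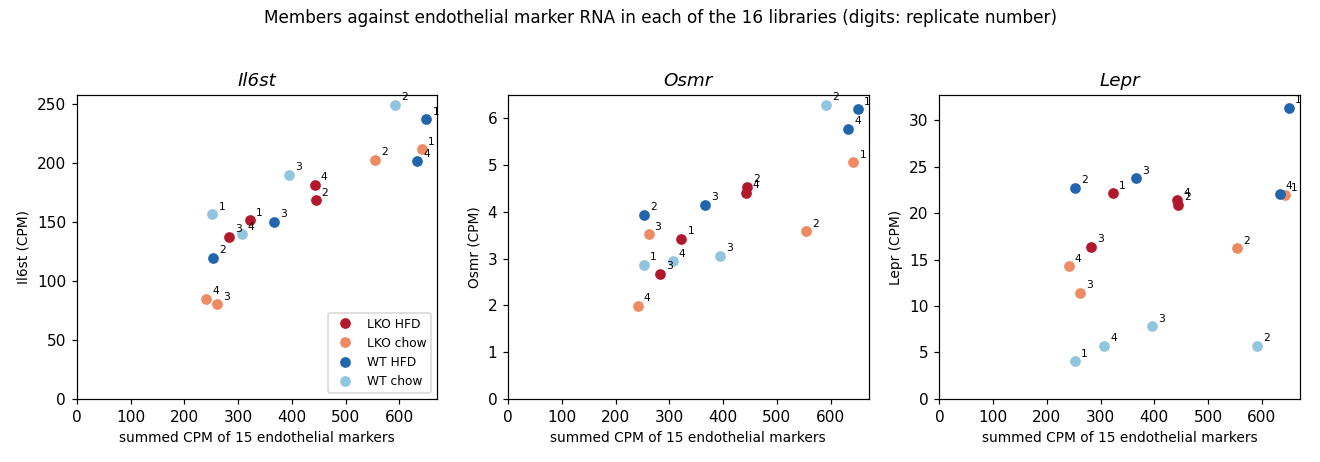
Il6st, Osmr and Lepr (CPM) against the summed CPM of 15 endothelial markers in each of the 16 libraries, on linear axes, coloured by group (digits give the replicate number). Il6st climbs with the sum across all groups, with LKO chow libraries 3 and 4 lowest in Il6st. The WT chow libraries lie lowest in Lepr, at sums of 252 to 592 CPM.

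Il6ra (chr3:89864059-89913196), which binds interleukin-6, averaged 31.3 ± 7.38 CPM in LKO on HFD, 35.9 ± 8.16 CPM in LKO on chow, 28.7 ± 3.62 CPM in WT on HFD and 42.4 ± 11.2 CPM in WT on chow (SD, n = 4 each). In WT, every HFD library lay below every chow library. The log2 difference of -0.56 for HFD over chow in WT had an unadjusted p of 0.0117 and an adjusted p of 0.167 (edgeR), so it did not pass.

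Socs3 (chr11:117966079-117970047), the feedback inhibitor induced by STAT3, was at 6.65, 6.85, 8.93 and 13.6 CPM in LKO on HFD and at 9.51, 6.25, 7.18 and 5.74 CPM in WT on HFD. It was at 7.53, 6.17, 6.97 and 9.14 CPM in LKO on chow and at 8.80, 11.7, 4.52 and 4.88 CPM in WT on chow. The groups overlapped in every comparison. The log2 differences between genotypes were -0.02 on chow (95% interval -0.63 to 0.60) and 0.33 on HFD (-0.28 to 0.94), so changes of these sizes were not detectable at this spread.

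In the other comparisons none of the 7 genes passed in edgeR or DESeq2. On HFD, LKO against WT, 0 of 7 were called beside 17.9% of all genes (10.3% higher and 7.57% lower), with 1 of 7 (Jak2) at an unadjusted p below 0.05. There limma voom called 2 (Jak2 and Lifr), beside 4511 of the 14434 genes, where edgeR called 2583. For HFD against chow in WT, 0 of 7 were called beside 2.04% of all genes, with 2 (Il6ra and Stat3) at an unadjusted p below 0.05. For HFD against chow in LKO, 0 of 7 were called beside 2.22% of all genes, with 0 at that unadjusted level. For the difference between diet responses, 0 of 7 were called beside 0.0208% of all genes (3 of 14434), with 1 (Stat3, 0.75 on the log2 scale, 95% interval 0.15 to 1.34, adjusted p = 0.489) at that level. limma voom called 0 of 7 in these last 3 comparisons.

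Of the ligands that signal through LIFR and IL6ST, Lif and Cntf were higher in LKO on both diets, Clcf1 was called on chow and not on HFD, and Ctf1, the most abundant of these 4, was called on neither diet. Of 12 listed ligands, 6 were in the counts table and 5 were tested, of which 3 were called higher on chow (Lif, Cntf and Clcf1), 2 on HFD (Lif and Cntf) and 0 lower, beside 12.9% and 10.3% of all genes called higher. The median log2 difference of the 5 was 1.39 on chow and 0.28 on HFD. Lif, Cntf and Clcf1 were rare, at most 4.24 CPM in any library, and in each genotype comparison the tested ligands other than those named did not pass.

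Lif, the ligand of LIFR, was at 3.86, 4.05, 4.04 and 4.24 CPM in LKO on HFD and at 1.17, 1.33, 0.723 and 0.381 CPM in WT on HFD. It was at 2.64, 2.48, 1.72 and 2.46 CPM in LKO on chow and at 0.416, 0.0975, 0.703 and 0.403 CPM in WT on chow. Neither pair of groups overlapped. Its log2 difference was 2.19 on HFD (SE 0.353, adjusted p = 0.000296, edgeR) and 2.59 on chow (SE 0.403, adjusted p = 0.000158), and both calls held in all 26 alternatives that tested Lif. Estimated counts were 37.7 to 103 per LKO library and 2.33 to 27.0 per WT library.

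Cntf, a ciliary neurotrophic factor that uses LIFR, IL6ST and CNTFR, averaged 1.93 ± 0.331 CPM in LKO and 0.935 ± 0.288 CPM in WT on HFD, and 2.46 ± 0.617 CPM in LKO and 0.864 ± 0.311 CPM in WT on chow (SD, n = 4 each). It was 2.08-fold higher in LKO on HFD (adjusted p = 0.0159, edgeR) and 2.82-fold higher on chow (adjusted p = 0.00112). The HFD call did not pass without WT HFD library 3 or 4 (adjusted p = 0.0509 and 0.0585). Cntf is uncertain, because 847 of its 1073 exon bases are shared with Zfp91 on the same strand. Clcf1, a related ligand, was higher by 1.39 on chow (SE 0.352, adjusted p = 0.00773), with an adjusted p of 0.153 without LKO chow libraries 3 and 4, and it also overlaps another gene on its strand. Ctf1, cardiotrophin-1, averaged 8.83 ± 0.325 CPM in LKO and 8.59 ± 1.68 CPM in WT on HFD, and 7.97 ± 0.614 CPM in LKO and 7.26 ± 1.79 CPM in WT on chow, and it did not pass.

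Leptin, interleukin-6 and oncostatin M transcripts were at the edge of detection in the second deposited table. Lep had reads in 4 of 16 libraries, with at most 6 counts, Il6 had at most 4 counts, Osm at most 6, and Il31 had 0 counts in all 16 libraries. No comparison was made for them at this depth. No member of the ligand list was called by edgeR for HFD against chow in WT (2 at an unadjusted p below 0.05, and 0 by DESeq2 and limma voom) or in LKO (1 at that level, 0 by DESeq2 and 1 by limma voom). Among all genes, edgeR called 2.04% in WT and 2.22% in LKO (320 genes), and limma voom called 2021 genes in LKO.

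**Figure D5:**
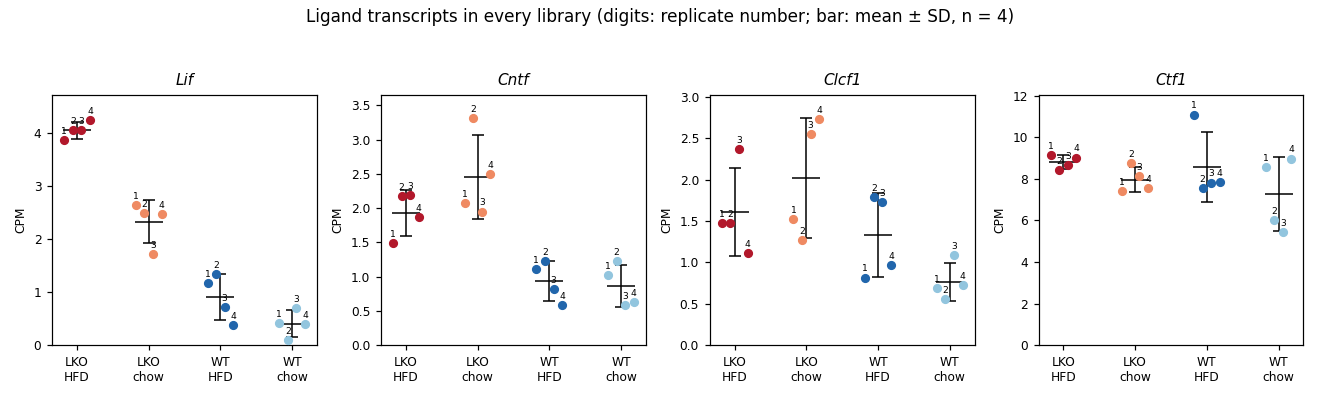
Lif, Cntf, Clcf1 and Ctf1 in CPM on linear axes in every library by group (digits give the replicate number, bars the mean and SD of 4 libraries). All 8 LKO libraries lie above all 8 WT libraries for Lif and for Cntf, whereas Ctf1 overlaps between groups.

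Among kinases and STATs outside the 8 genes, the Janus kinases Jak3 and Tyk2 were higher in LKO than in WT on both diets. Jak3, a kinase of lymphoid cytokine receptors, averaged 44.9 ± 4.84 CPM in LKO and 24.4 ± 1.49 CPM in WT on HFD, and 37.8 ± 3.07 CPM in LKO and 24.2 ± 4.73 CPM in WT on chow (SD, n = 4 each). Its log2 differences, 0.88 on HFD (SE 0.12, adjusted p = 5.41e-05) and 0.64 on chow (SE 0.12, adjusted p = 0.000797), held in all 27 alternatives, with no overlap between groups.

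Tyk2, which also binds IL6ST, was higher by 0.42 on chow (log2, SE 0.083, adjusted p = 0.00145) and 1.22-fold on HFD (adjusted p = 0.0229). The HFD call of Tyk2 did not pass without WT HFD library 1, 2 or 4 or without LKO HFD library 1, 2 or 4 (adjusted p of 0.0518 to 0.0776). Jak1, the main kinase on IL6ST, did not pass on chow (-0.17, 95% interval -0.48 to 0.15) or on HFD (-0.04, 95% interval -0.35 to 0.27). Jak3 and Tyk2 share 404 and 554 exon bases with other annotated genes, so part of their reads is uncertain.

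Of 20 further inhibitors (SOCS proteins, phosphatases, PIAS proteins) and receptor-cleaving proteases, 1 was lower in LKO on chow, the aminopeptidase Erap1 (-0.42 on the log2 scale, and -0.20 with an adjusted p of 0.184 without LKO chow libraries 3 and 4, and an adjusted p of 0.0589 with only the chow groups fitted), and none was higher, beside 11.8% lower and 12.9% higher among all genes. On HFD 0 of 20 were called by edgeR and DESeq2, beside 17.9% of all genes (2583) by edgeR. There limma voom called 2, beside 4511 of all genes, and 2 were at an unadjusted p below 0.05 in edgeR. Of 12 adaptors and kinases downstream, 1 was higher in LKO on chow (Sh2b3, 0.35) and 4 were lower, among them the guanine exchange factor Sos1 (-0.49, SE 0.1, adjusted p = 0.00172), Pik3r1 (-0.41, SE 0.109, adjusted p = 0.01) and Pik3ca (-0.29), again beside 12.9% higher and 11.8% lower among all genes. Without LKO chow libraries 3 and 4, Pik3r1 and Pik3ca did not pass (adjusted p = 0.108 and 0.291), and Pik3ca also did not pass without WT chow library 2 or 3 or LKO chow library 3 or 4, with the replicate block or with only the chow groups fitted (adjusted p of 0.0622 to 0.124). Sos1 averaged 37.3 ± 1.58 CPM in LKO and 53.2 ± 2.99 CPM in WT on HFD, and 40.8 ± 5.56 CPM in LKO and 57.3 ± 6.76 CPM in WT on chow. The adaptor count on chow, 5, was 2 without LKO chow libraries 3 and 4 and 3 without WT chow library 2.

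Of 33 listed acute phase and other STAT3-induced genes 32 were tested, of which 10 were lower and 2 higher in LKO on chow, beside 11.8% and 12.9% of all genes. The median log2 difference was -0.28, beside 0.02 over all genes. The 12 calls became 6 without WT chow library 2, the library with the high Stat3, and 7 without LKO chow libraries 3 and 4. On HFD 2 were lower and 3 higher, beside 7.57% and 10.3% of all genes, with a median of 0.01.

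Lbp, the lipopolysaccharide-binding protein, fell in LKO on both diets. It averaged 50.9 ± 4.46 CPM in LKO and 96.2 ± 10.2 CPM in WT on HFD, and 50.9 ± 7.71 CPM in LKO and 123 ± 31.6 CPM in WT on chow (SD, n = 4 each), with log2 differences of -0.92 and -1.27 (adjusted p = 0.000394 and 1.38e-05) that held in all 27 alternatives. Orm1, an acid glycoprotein, fell by 1.10 in LKO on chow (SE 0.16, adjusted p = 8.86e-05), with 208, 191, 258 and 281 CPM in LKO libraries and 449, 540, 461 and 559 CPM in WT libraries. Apcs, serum amyloid P, fell by 0.59 (SE 0.118, adjusted p = 0.00146) and Itih4 by 0.77 (SE 0.157, adjusted p = 0.0017) on chow. For Itih4 the LKO chow libraries ran from 1028 CPM in library 4 to 1928 CPM in library 1, against 2433 to 2667 CPM in WT.

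On HFD, Itih3, an inter-alpha-trypsin inhibitor chain, averaged 1086 ± 175 CPM in LKO and 505 ± 26.2 CPM in WT (log2 difference 1.11, SE 0.15, adjusted p = 5.56e-05), and the protease inhibitor Serpina3n was higher by 0.94 (SE 0.156, adjusted p = 0.00035). Saa1 and Saa2, the most inducible acute phase genes, did not pass between genotypes on either diet, at -0.09 and -0.05 on HFD and -0.40 and -0.52 on chow. The promoter palindrome occurred in 7 of the 26 genes of this list with a window, beside 9.55% of all genes.

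For diet, 1 gene of this list was higher and 4 were lower on HFD in WT, beside 0.97% and 1.07% of all genes, and 3 were higher and 0 lower in LKO, beside 1.14% and 1.07%. Mcl1, an anti-apoptotic STAT3 target, was higher on HFD in both genotypes, with 175 ± 4.81 CPM on HFD and 115 ± 9.23 CPM on chow in LKO, and 151.5 ± 9.44 CPM on HFD and 111 ± 5.05 CPM on chow in WT (adjusted p = 0.00105 and 0.00446). Orm2 was higher on HFD in LKO by 1.87 (SE 0.32, adjusted p = 0.00735). In WT, Apcs was lower on HFD by -0.67 (adjusted p = 0.00508) and Itih3 by -0.70 (adjusted p = 0.0195), the second of which did not pass without WT chow library 1 or WT HFD library 2, 3 or 4 (adjusted p of 0.0522 to 0.059). For the difference between diet responses, no gene of this list was called by edgeR, beside 0.0208% of all genes, and 1 each by DESeq2 and limma voom. Among all genes, DESeq2 and limma voom called 53 and 16. In edgeR, 12 of 32 genes had an unadjusted p below 0.05. The share of all genes at that unadjusted level was not computed, so this count has no background beside it.

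Lepr in liver is known to respond to feeding state and time of day, so 2 further lists were read beside it. Of 20 fasting and feeding genes, 3 were higher in LKO on chow and none lower, beside 12.9% and 11.8% of all genes: Igfbp2 by 1.57 (SE 0.214, adjusted p = 5.95e-05), Pdk4 by 1.52 and Fgf21 by 1.75. Pdk4 did not pass without LKO chow libraries 1 and 2 (adjusted p = 0.0743), nor Fgf21 without libraries 3 and 4 (adjusted p = 0.115), and 5 genes of the list were called without WT chow library 2. Igfbp2 averaged 484 ± 97.6 CPM in LKO and 287 ± 41.0 CPM in WT on HFD, and 799.5 ± 180 CPM in LKO and 270.0 ± 86.3 CPM in WT on chow. On HFD, 2 of the 20 were higher in LKO (Igfbp2 by 0.75 and Pdk4 by 1.41) and 1 was lower, beside 10.3% and 7.57% of all genes. The lower one was G6pc, the last enzyme of glucose output, at -1.25 (SE 0.308, adjusted p = 0.0102), which held in all 27 alternatives. The Pdk4 call on HFD did not pass without WT HFD library 3 or 4 or LKO HFD library 3 (adjusted p of 0.0505 to 0.0605). The Igfbp2 call on HFD did not pass without WT HFD library 1 or 2 or LKO HFD library 1 (adjusted p of 0.0527 to 0.0704).

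For diet, Srebf1, a regulator of lipid synthesis, was the 1 gene of the feeding list higher on HFD in each genotype, by 1.01 in LKO (SE 0.244, adjusted p = 0.0397) and 1.003 in WT (SE 0.244, adjusted p = 0.0443). The call did not pass in 12 of 27 alternatives in LKO and 13 of 27 in WT. Pck1, an enzyme of gluconeogenesis, was the 1 gene lower on HFD in WT, at -1.16 (SE 0.261, adjusted p = 0.0321), and did not pass in 5 of 27 alternatives. No gene of the list was lower in LKO by edgeR. Among all genes, 1.14% were called higher on HFD in LKO and 0.97% in WT, and 1.07% lower in each genotype.

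Of 18 clock genes, 4 were lower in LKO than in WT on chow and none higher, beside 11.8% and 12.9% of all genes. Hlf had the lowest p of the 4 (-0.69, adjusted p = 0.000227) and held in all 27 alternatives. The others did not pass in 1 of 27 (Bhlhe40), 5 of 27 (Cry2) and 18 of 26 alternatives (Ciart). Over the alternatives, 2 to 8 clock genes were called. The 8 were called without LKO chow libraries 3 and 4, where Bhlhe40 and Cry2 did not pass (adjusted p = 0.0999 and 0.141). On HFD, Hlf was the 1 clock gene called, beside 17.9% of all genes, at -0.39 (adjusted p = 0.0195), and it did not pass in 4 of 27 alternatives. For HFD against chow in LKO, 5 clock genes were called, beside 2.22% of all genes, and 9 without LKO chow libraries 3 and 4. DESeq2 called 11 and limma voom 7, but these tools called 783 and 2021 of all genes here, where edgeR called 320. Nr1d2 (1.09) and Cry2 (0.61, named after its value was seen) were higher, and Arntl, Cry1 (-1.26) and Npas2 (-2.64) were lower. Without LKO chow libraries 1 and 2, Cry1 and Npas2 did not pass (adjusted p = 0.0883 and 0.0644). In all, Cry1 did not pass in 6 of 27 alternatives and Npas2 in 5 of 27. Among these was leaving out LKO HFD library 1, 2 or 4 (adjusted p of 0.0505 to 0.0851 for Cry1 and 0.0899 to 0.101 for Npas2). Nr1d2 did not pass with only the groups compared (adjusted p = 0.054).

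Arntl, a core activator of the clock, averaged 5.45 ± 2.21 CPM on HFD and 22.05 ± 10.05 CPM on chow in LKO, and 5.62 ± 1.13 CPM on HFD and 16.9 ± 7.02 CPM on chow in WT (SD, n = 4 each), with no overlap between diets in either genotype. Its log2 difference was -2.01 in LKO (SE 0.381, adjusted p = 0.0138) and -1.59 in WT (SE 0.381, adjusted p = 0.0458), where it was the 1 clock gene called, beside 2.04% of all genes. The call did not pass in 3 of 27 alternatives in LKO and 12 of 27 in WT. In WT, DESeq2 called 3 clock genes (702 of all genes), limma voom called 0 (470 of all genes), and edgeR called 0 without WT chow library 2. For the difference between diet responses, edgeR, DESeq2 and limma voom called no gene of either list, beside 0.0208% of all genes by edgeR. In edgeR, 1 feeding gene and 3 clock genes were at an unadjusted p below 0.05. The labels give neither feeding state nor time of collection, and the part of either in the Lepr pattern was not tested.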

How the data were processed

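Poly(A) RNA was sequenced as paired-end reads from 16 liver libraries, per the labels' protocols. As deposited by the authors, values are estimated counts, not normalised, with 1 row for each gene name. Whole numbers (within 1e-06) made up 51.1% of them, and libraries summed to 19142612 to 25120565. The mm10 build, Bowtie2 and DESeq2 are named without versions in the submitters' processing notes. The counting tool, annotation and strandedness are not given in the sources used here. A second table, named RPKM, holds the same estimated counts for 35712 genes as deposited, with the chow columns displaced by 1 row (1 gene equal on chow as it stands, 15119 after realignment), and it was used only for genes with 0 counts in some library and as an alternative.

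Counts were rounded and fitted with edgeR 4.0.16 in R 4.3.3 (TMM, filterByExpr, robust quasi-likelihood, 1 mean per group over 16 libraries), leaving 14434 of 15119 genes. Tests were 2-sided, with Benjamini-Hochberg adjustment over all genes and a threshold of 0.05. Every adjusted p is from this fit unless another tool is named. Counts at an unadjusted p below 0.05 stand without the share of all genes at that level, which was not computed. CPM use TMM library sizes, and correlations log2 CPM with a prior count of 2 or, for marker sums, CPM. The 8 genes, the pathway and marker lists and the comparisons were chosen with earlier results of these data known. The text names the 8 genes, called list genes (at most the 4 with the lowest p per list and comparison), the 5 genes most like and 3 least like Lepr, and Arglu1. Genes that did not pass are named where a list's count or role needs them, chosen after their values were seen. Counts over the list of kinases and STATs are not reported here. Gene positions and exon lengths are from GENCODE M21 (GRCm38) and promoters from RefSeq (GRCm38.p6). Comparisons share groups, so their results are not independent. Of 24 library pairs with the same replicate number, 5 correlated above 0.1 (median -0.018), so libraries were treated as unpaired. Alternatives were DESeq2 1.42.0, limma 3.58.1 voom, 2 other scalings, 2 other filters, the second table, only the groups compared, a replicate block and leaving out libraries. The scripts were tested on simulated data.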

Additional observations from a re-analysis of the deposited data

Results flagged for a closer look

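The levels of the 8 genes in each of the 4 groups, 32 sets of 4 libraries, were screened for a library far from the others of its group, a screen in which chance marks about 1 in 20 sets. It marked 2. Stat3 in WT chow replicate 2 was at 239.5 CPM, beside 110 to 122 CPM in the other WT chow libraries, and the LKO-over-WT call of Stat3 on chow was not made without this library (log2 difference -0.27, adjusted p = 0.134, edgeR). Osmr in the same library was at 6.287 CPM, beside 2.87 to 3.07 CPM in the other WT chow libraries. That library also held the highest summed levels of endothelial and of Kupffer cell and macrophage markers in its group, 591.8 and 776.6 CPM, beside at most 395 and 404 CPM in the others. The part of these cell types in either value was not tested.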

How the results depend on the processing

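None of the calls on Lifr, Jak2 or Stat3 changed direction in the 27 alternatives, and Lepr kept its direction in all 5 comparisons. Genes called for LKO against WT on chow numbered 3565, and 2152 with only the groups compared and 2373 without LKO chow libraries 3 and 4, and the count of the 7 genes other than Lepr went to 1 and 0 with these settings. On HFD, 2583 genes became 4511 with limma voom, and the count of the 7 genes went to 2 with limma voom and to 1 with upper-quartile scaling, with only the groups compared, without LKO chow libraries 1 and 2 and without libraries 3 and 4. For HFD against chow in WT, 294 genes became 702 (DESeq2), 470 (limma voom), 618 (without libraries 1 and 2) and 502 (without 3 and 4). In LKO, 320 became 783 (DESeq2), 2021 (limma voom), 188 (only the groups compared), 2768 (without 1 and 2) and 179 (without 3 and 4), and the count of the 7 genes went to 2 without 1 and 2. For the difference between diet responses, 3 genes became 53 (DESeq2), 16 (limma voom), 0 with a mean count of at least 50 and 1264 (without 1 and 2). The cause of these shifts was not tested.

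Leaving out 1 library at a time gave 2698 to 3919 genes for LKO against WT on chow (1 to 3 of the 7 genes), 1977 to 2833 on HFD (0 to 1 of 7), 155 to 359 for diet in WT, 111 to 656 for diet in LKO and 0 to 9 for the difference between diet responses (0 of 7 in each of these 3). With the replicate number as a block, which the data did not show to pair libraries, 0 genes were called for the difference between diet responses and Stat3 on chow had an adjusted p of 0.0539.

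Estimates that changed sign were not called with or without the change. For LKO over WT on chow without LKO chow libraries 3 and 4, the log2 difference was 0.003 for Il6ra, 0.173 for Il6st and 0.177 for Osmr. Socs3 was at 0.057 (limma voom), 0.03 (upper quartile), 0.005 (mean count filter) and 0.094 (without libraries 1 and 2). Jak2 for diet in WT was at 0.007 with limma voom. For diet in LKO, Il6ra was at 0.091 without libraries 1 and 2, and Il6st, Osmr and Jak2 at -0.377, -0.197 and -0.173 without libraries 3 and 4. For the difference between diet responses, Il6st and Jak2 were at -0.323 and -0.133 without libraries 3 and 4, and Osmr at 0.055 without 1 and 2. Leaving out 1 library gave, for LKO over WT on chow, -0.324 to 0.264 for Osmr and -0.192 to 0.296 for Socs3, and on HFD -0.037 to 0.238 for Il6ra and -0.298 to 0.022 for Il6st. For diet in WT the ranges were -0.226 to 0.118 for Il6st, -0.188 to 0.029 for Lifr, -0.101 to 0.043 for Jak2 and -0.245 to 0.229 for Socs3. For diet in LKO they were -0.062 to 0.378 for Il6st, -0.104 to 0.305 for Osmr and -0.015 to 0.242 for Jak2. For the difference between diet responses the range was -0.007 to 0.432 for Il6st.

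The median log2 difference of all genes lay between -0.081 and 0.069 in every comparison under every scaling. Upper-quartile scaling called 0 higher and 2 lower genes for the difference between diet responses, beside 1 and 2. Low counts limit Lif, Cntf, Clcf1 and Osmr, and Lep, Il6 and Il31 could not be compared at this depth.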
